A study of Mus musculus with 4 samples.

Results

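Among sorted mouse Treg cells, 130 barcodes held RNA of Dapl1 and no detected RNA of Foxp3, Ikzf2 or Il2ra. They are called Dapl1+ Foxp3-negative cells here. A barcode was chosen when it had at least 500 genes, at most 10% mitochondrial UMIs, at least 1 UMI of Cd3e, Cd3d or Cd3g, at least 1 UMI of Dapl1, and 0 UMIs of Foxp3, Ikzf2 and Il2ra. A UMI (unique molecular identifier) stands for 1 captured RNA molecule. The 130 cells were 0.646% of the 20109 T cell barcodes that passed the same filters, out of 24546 deposited barcodes. They comprised 13 cells from 7-week liver, 20 from 7-week spleen, 46 from neonatal liver and 51 from neonatal spleen. The cells were thus chosen by measured UMIs of Dapl1, Foxp3, Ikzf2, Il2ra and the Cd3 genes, whose levels in the cells as chosen were not tested.

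The study sequenced single CD4+ Foxp3GFP+ cells from mouse liver and spleen, with 1 library for each tissue and age. The mice were C57BL/6 animals in which GFP reports Foxp3. The 7-week mice carry the stage label "aged", and their Rosa26 genotype is not given. The neonatal mice were 12 days old and, per the series text, Foxp3GFP-Cre Rosa26loxP-Stop-loxP-YFP, so that cells which have expressed Cre from the Foxp3 locus keep YFP. All 4 libraries were enriched for CD4 on magnetic beads and then sorted for GFP, so the cells described here had passed a gate for Foxp3 reporter expression. The number of mice in a library is not given, and with 1 library per group neither age nor tissue has a replicate check. Values are listed in the order 7-week liver, 7-week spleen, neonatal liver and neonatal spleen wherever libraries are not named.

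Naive T cells have left the thymus and have not yet met their antigen. They circulate through lymphoid organs with the help of CCR7, are maintained by IL-7, and depend on the transcription factors TCF1 (gene Tcf7) and LEF1. Treg cells are held in their identity by Foxp3, carry the IL-2 receptor alpha chain CD25 (Il2ra), and many of them contain the transcription factor Helios (Ikzf2). Dapl1 encodes death associated protein-like 1, and its RNA is known from naive and early memory T cells of the mouse.

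The start regions of Dapl1, the gene that chose the cells, and of Igfbp4 are shown. Of the label markers tested below, Igfbp4 had the largest difference from Foxp3-positive cells. Some genes outside the label differed more. Igfbp4 encodes a secreted protein that binds insulin-like growth factors. In GENCODE vM21 on GRCm38, Dapl1 lies at chr2:59484653-59505020 and Igfbp4 at chr11:99041244-99054392, both on the plus strand. The 250 bases before each start are given 5′ to 3′ from RefSeq on GRCm38.p6, at chr2:59484403-59484652 for Dapl1 and chr11:99040994-99041243 for Igfbp4, both plus strand, with TATAAA in capitals.
Dapl1: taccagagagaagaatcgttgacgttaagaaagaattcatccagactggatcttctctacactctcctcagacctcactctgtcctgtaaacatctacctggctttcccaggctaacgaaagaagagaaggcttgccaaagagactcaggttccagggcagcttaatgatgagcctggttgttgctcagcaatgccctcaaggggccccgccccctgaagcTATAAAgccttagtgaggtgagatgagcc
Igfbp4: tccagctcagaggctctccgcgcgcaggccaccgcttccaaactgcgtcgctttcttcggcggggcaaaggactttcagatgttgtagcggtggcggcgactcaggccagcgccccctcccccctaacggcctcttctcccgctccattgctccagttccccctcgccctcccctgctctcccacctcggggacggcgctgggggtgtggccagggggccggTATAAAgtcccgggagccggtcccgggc
Each window held 1 match to TATAAA on the gene's strand. Its first base lay 29 bases before the start of Dapl1 and 28 bases before the start of Igfbp4. Of 32851 windows of the same length, 2494 (7.59%) held this motif. The core letters of the TCF and LEF motif, CTTTGA or TCAAAG on the other strand, had 0 matches in both windows and were present in 4544 windows (13.8%). A match is a run of letters and not measured binding. Of 10 genes looked for, 7 had a window in the RefSeq table. Ccr7 lies on the same chromosome as Igfbp4, on the minus strand at chr11:99144196-99155077, with 89804 bases and the gene Tns4 between them.

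The Dapl1+ Foxp3-negative cells carried T cell RNA. Summed over a set of T cell markers, which includes the Cd3 genes of the rule, they held 5473, 5989, 6807 and 7368 UMIs per 1000000 (CPM, the UMIs of all cells of a class in a library scaled to that total), against 6572, 6961, 7158 and 7276 CPM in Foxp3-positive cells. Foxp3-positive cells are T cell barcodes with at least 1 Foxp3 UMI under the same filters, and numbered 1441, 3810, 4144 and 4280. Granulocyte, platelet and hepatocyte markers had 0 UMIs in the Dapl1+ Foxp3-negative cells of each library, as did the thymocyte genes Rag1, Rag2, Dntt and Ptcra. Myeloid markers summed to 0, 0, 4.99 and 4.88 CPM in Dapl1+ Foxp3-negative cells, against 7.94, 11.6, 11.9 and 26.3 CPM in Foxp3-positive cells. B cell markers summed to 0, 16.9, 4.99 and 4.88 CPM in Dapl1+ Foxp3-negative cells, against 38.3, 34.8, 65.5 and 44.0 CPM in Foxp3-positive cells. Most of these Foxp3-positive levels are below what 3 UMIs are worth in the Dapl1+ Foxp3-negative sums (90.7, 50.6, 14.97 and 14.6 CPM), so that no difference in these sets was detectable at this depth in the 7-week libraries. Natural killer and innate lymphoid markers summed to 0, 50.6, 44.9 and 4.88 CPM in Dapl1+ Foxp3-negative cells, against 1.22, 7.44, 15.7 and 15.2 CPM in Foxp3-positive cells. The 7-week spleen value is what 3 UMIs are worth there and is not read as a difference. In neonatal liver the sum was higher, from few UMIs and without a test.

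Cd4, the co-receptor used in the bead enrichment, had a UMI in 56 of the 130 cells. By library these were 3 (23.1%), 8 (40.0%), 22 (47.8%) and 23 (45.1%) Dapl1+ Foxp3-negative cells, against 44.8%, 43.6%, 52.4% and 52.8% of Foxp3-positive cells. A Cd8a or Cd8b1 UMI was found in 9 of the 130 cells. The marker set for CD4 T cells, Cd4, Zbtb7b and Cd40lg, summed to 181, 388, 329 and 317 CPM in Dapl1+ Foxp3-negative cells, against 268, 271, 185 and 199 CPM in Foxp3-positive cells. That for CD8 T cells summed to 30.2, 16.9, 59.9 and 58.6 CPM in Dapl1+ Foxp3-negative cells. The Foxp3-positive sums were 66.0, 53.7, 61.9 and 49.5 CPM. In the CD4 set, Cd40lg alone gave 90.7, 50.6, 120 and 97.6 CPM in Dapl1+ Foxp3-negative cells. Its Foxp3-positive levels were 20.98, 31.6, 13.1 and 20.6 CPM, so the neonatal excess of that set is largely this gene.

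The cells did not share 1 T cell receptor beta variable segment. A Trbv UMI was found in 11 of 13, 20 of 20, 44 of 46 and 51 of 51 cells. The segment with the most UMIs in a cell was 1 of 5, 11, 15 and 16 different segments in the 4 libraries. A single segment was detected in 8, 15, 23 and 24 of these cells, and the others held UMIs of more than 1. The most frequent was Trbv3 in 5 cells of 7-week liver, Trbv19 in 4 cells of 7-week spleen and 8 cells of neonatal liver, and Trbv1 in 6 cells of neonatal spleen. None of the 130 cells shared its barcode with another of them, although 2 of the 130 barcodes also occurred in another library, where any pair of libraries shared 23 to 91 barcodes.

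The cells were somewhat shallower than their Foxp3-positive neighbours. Median UMIs per cell were 2710, 2654.5, 4065 and 3838 in Dapl1+ Foxp3-negative cells, against 2934, 3137, 5051 and 4990.5 in Foxp3-positive cells. In all, the 130 cells held 497554 UMIs, of which 33071 came from 7-week liver, 59277 from 7-week spleen, 200392 from neonatal liver and 204814 from neonatal spleen. The deepest single cell gave 13.6%, 11.6%, 4.29% and 3.94% of its library's sum. The whole libraries held between 7442185 and 33813594 UMIs. Precision is therefore lowest in 7-week liver, and intervals on levels and shares cover counting error only.

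The share of T cell barcodes that met the rule was higher in the neonatal libraries. It was 0.543% in 7-week liver (95% exact Clopper-Pearson interval 0.289 to 0.926), 0.334% in 7-week spleen (0.204 to 0.516), 0.820% in neonatal liver (0.601 to 1.09) and 0.833% in neonatal spleen (0.621 to 1.09). The intervals of 7-week spleen and both neonatal libraries did not overlap, while that of 7-week liver overlapped the others. After each barcode was thinned to 1000 UMIs the shares were 0.418% (0.191 to 0.792), 0.301% (0.176 to 0.482), 0.542% (0.358 to 0.788) and 0.852% (0.629 to 1.13). Of these intervals only those of 7-week spleen and neonatal spleen did not overlap. At equal depth neonatal liver was thus not apart from either 7-week library. The sort for GFP stands before these shares, which describe the cells that passed it. The number of Dapl1+ Foxp3-negative cells in the tissues was not measured.

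Dapl1 RNA was found more often per cell where the 3 Treg genes of the rule had 0 UMIs, although the 300 Dapl1+ Foxp3-positive cells outnumbered the 130 chosen ones. Among T cell barcodes with 0 UMIs of Foxp3, Ikzf2 and Il2ra, a Dapl1 UMI was present in 3.12%, 3.04%, 9.24% and 10.2% of cells, against 1.11%, 1.34%, 1.45% and 4.04% of Foxp3-positive cells. The first shares were the higher ones in each library, although those cells were shallower. Barcodes with no Cd3 UMI had median depths of 1039, 1122, 807 and 978 UMIs, and their other T cell RNA was not examined. A Dapl1 UMI was present in 0 of 29, 0 of 42, 0 of 56 and 0 of 58 of them. Such counts allow a share of up to 10.3%, 7.14%, 5.36% and 5.17%. Of the 130 cells, 52 held a single Dapl1 UMI, 78 held 2 or more, and the highest count was 14.

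Whether cells without a Foxp3 UMI lacked Foxp3 RNA, or held RNA that was not captured, was examined by assigning each UMI at random to 1 of 2 sets, choosing cells by the rule in the first set and measuring them in the second. This gave 9, 20, 39 and 53 chosen cells, not the same ones as above. In the second set Dapl1 reached 579, 481, 539 and 445 CPM in Dapl1+ Foxp3-negative cells, 445, 316, 246 and 224 CPM in Dapl1+ Foxp3-positive cells, and 4.92, 8.01, 4.45 and 12.1 CPM in Foxp3-positive cells. Dapl1 was thus seen again in both classes picked for it. The Foxp3-positive cells were not picked for Dapl1, so their lower level was set by the choice and is not a result. Foxp3 reached 248 CPM (3 UMIs), 128 CPM (4 UMIs), 53.9 CPM (5 UMIs) and 142 CPM (16 UMIs) in Dapl1+ Foxp3-negative cells, against 589, 531, 502 and 496 CPM in Foxp3-positive cells. The exact 95% intervals of the 2 classes lay apart in 7-week spleen and both neonatal libraries and overlapped in 7-week liver. These classes were picked on Foxp3 itself, so this gap was set by the choice and is not a result. Cells with 0 UMIs of all 4 genes (Dapl1, Foxp3, Ikzf2 and Il2ra) in the first set had 298, 310, 291 and 285 CPM of Foxp3 in the second. Their intervals lay above that of the Dapl1+ Foxp3-negative cells in both neonatal libraries and overlapped it in both 7-week libraries. Here both classes had been chosen at 0 UMIs of Foxp3. Ikzf2 reached 248, 0, 64.7 and 62.3 CPM in Dapl1+ Foxp3-negative cells, against 417, 498, 490 and 442 CPM in Foxp3-positive cells. Il2ra reached 82.7, 32.1, 21.6 and 44.5 CPM in Dapl1+ Foxp3-negative cells, against 225, 267, 134 and 200 CPM in Foxp3-positive cells. The Dapl1+ Foxp3-negative cells were chosen at 0 UMIs of Ikzf2 and Il2ra, so these gaps are not a result either. Some Foxp3, Ikzf2 and Il2ra RNA was thus found among cells chosen for having none, in each library for Foxp3 and Il2ra and in 3 of 4 for Ikzf2.

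The other markers of the label, Tcf7, Ccr7 and Igfbp4, were not used by the rule, but the label was given with earlier results of these data known. Ccr7, a chemokine receptor that guides cells into lymph nodes, had a UMI in 101 of the 130 cells. Tcf7 had one in 87 cells and Igfbp4 in 80 cells. All 3 RNAs were found together in 55 cells, 2 of them in 41, 1 in 21 and none in 13. Among neonatal liver cells, 33 of 46 held all 3, against 18 of 51 in neonatal spleen, and 1 of 13 in 7-week liver against 3 of 20 in 7-week spleen, where cells were shallower. The part of depth in these counts was not tested.

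Against Foxp3-positive cells of the same libraries, the Dapl1+ Foxp3-negative cells had high RNA of naive T cell genes and low RNA of Treg, effector and cell-cycle genes. UMIs were summed per library and class and compared with edgeR's quasi-likelihood test with the library as a block, Benjamini-Hochberg adjusted over 9052 genes. The test was past 0.05 for 319 genes higher (3.52%) and 433 genes lower (4.78%) in the Dapl1+ Foxp3-negative cells, or 8.31% in either direction. Of the genes tested, 175 had 0 UMIs in the 130 cells and passed the filter on low counts through the Foxp3-positive sums alone. They could only be called lower, and 70 of them were. Of the 22 naive genes tested, 21 were higher and 0 lower, with a median log2 fold change of 1.63 against -0.06 over all genes. The naive list holds the label markers Tcf7, Ccr7 and Igfbp4, so its counts and sums are not separate from the label. Without neonatal liver, 13 of the 22 were called higher, and after thinning to 1000 UMIs 11 of 20 were. The p-values rest on 4 library pairs that differ in age and tissue.

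Igfbp4 stood at 575, 439, 1387 and 933 CPM in Dapl1+ Foxp3-negative cells, against 86.4, 79.5, 46.9 and 103 CPM in Foxp3-positive cells. The Dapl1+ Foxp3-negative values all lay above the Foxp3-positive ones, by a log2 fold change of 3.63 ± 0.19 (model-based SE, 4 pairs, edgeR adjusted p = 6.4e-80). This SE comes from edgeR's F statistic. It is not the spread of the 4 pairs, whose difference varied with age and tissue. The 514 Igfbp4 UMIs came from 80 cells, with up to 36 in 1 cell. In 7-week liver all 19 UMIs lay in the 9 cells with 1 Dapl1 UMI, and the 4 cells with 2 or more had 0. In the second set of the UMI split Igfbp4 reached 82.7 CPM (1 UMI), 641, 1369 and 783 CPM in Dapl1+ Foxp3-negative cells, against 84.3, 81.1, 45.6 and 105 CPM in Foxp3-positive cells, so that 7-week liver showed no excess there. Without 7-week liver the log2 fold change was 3.798. Ccr7 stood at 786, 590, 1352 and 703 CPM in Dapl1+ Foxp3-negative cells, against 242, 178, 137 and 182 CPM in Foxp3-positive cells. The log2 fold change of Ccr7 was 2.41 ± 0.17, and the groups did not overlap. Tcf7 stood at 242, 304, 539 and 405 CPM in Dapl1+ Foxp3-negative cells, against 109, 111, 48.1 and 105 CPM in Foxp3-positive cells, a log2 fold change of 2.40 ± 0.20. Here too each Dapl1+ Foxp3-negative value was above all 4 Foxp3-positive ones, and neonatal liver was the highest library for all 3 markers.

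Tdrp had the largest log2 fold change among called genes that moved the same way in each library. It stood at 121, 50.6, 110 and 68.4 CPM in Dapl1+ Foxp3-negative cells, against 4.89, 3.32, 3.15 and 3.66 CPM in Foxp3-positive cells. The log2 fold change was 4.74 ± 0.40 (edgeR adjusted p = 2.1e-29), from 43 UMIs in 34 cells. Rflnb, which encodes a filamin-binding protein, stood at 242, 202, 165 and 210 CPM in Dapl1+ Foxp3-negative cells, against 64.8, 46.0, 28.2 and 22.9 CPM in Foxp3-positive cells. Actn1, which encodes an actin cross-linker, stood at 333, 236, 274 and 215 CPM in Dapl1+ Foxp3-negative cells, against 65.0, 71.2, 26.2 and 53.0 CPM in Foxp3-positive cells. These 2 genes of the cytoskeleton were even across the 4 Dapl1+ Foxp3-negative sums and did not overlap with the Foxp3-positive sums. Their log2 fold changes were 2.74 ± 0.24 and 2.60 ± 0.22.

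**Figure D1:**
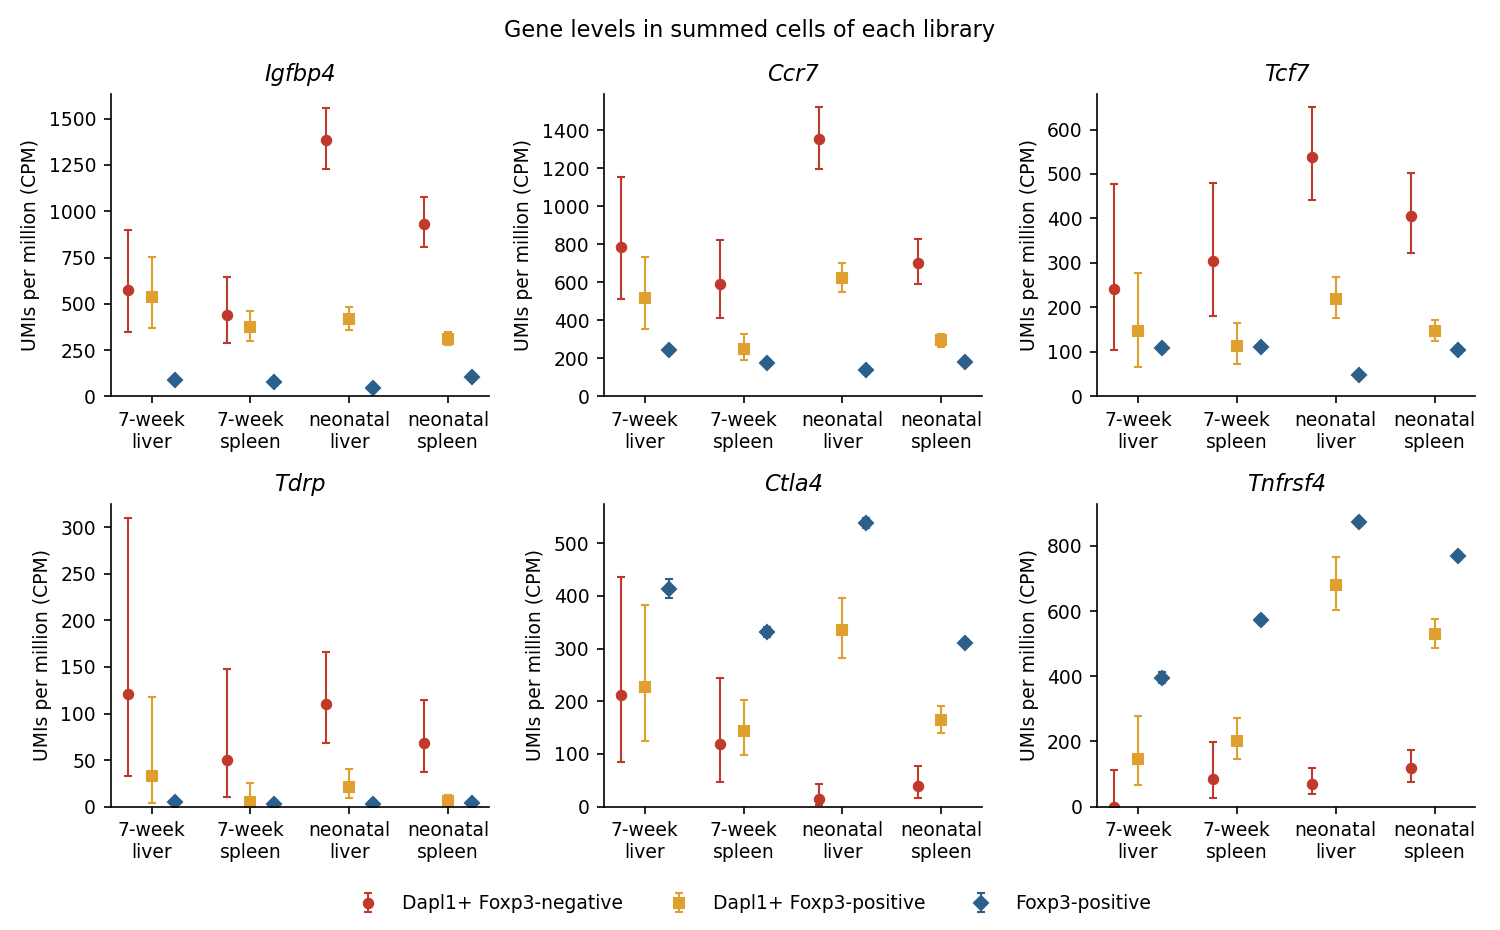
Levels of 6 genes in UMIs per 1000000 (CPM, linear axes from 0) in the summed cells of each library, for Dapl1+ Foxp3-negative, Dapl1+ Foxp3-positive and Foxp3-positive cells; bars are exact Poisson 95% intervals, counting error only. Igfbp4, Ccr7, Tcf7 and Tdrp are highest in the Dapl1+ Foxp3-negative sums of each library, with Igfbp4 at 1387 CPM in neonatal liver, and Tnfrsf4 is lowest there.

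Among the naive genes, 3 that encode nuclear factors were picked after their values were seen. Lef1, the partner of TCF1, stood at 363, 455, 624 and 449 CPM in Dapl1+ Foxp3-negative cells, against 176, 162, 132 and 196 CPM in Foxp3-positive cells, a log2 fold change of 1.72 ± 0.18. Satb1, a chromatin organiser, stood at 121, 186, 220 and 142 CPM in Dapl1+ Foxp3-negative cells, against 62.3, 61.6, 22.5 and 48.2 CPM in Foxp3-positive cells, a log2 fold change of 2.26. Neither gene's groups overlapped. Klf2, a factor that sustains S1pr1, stood at 1603, 860, 1801 and 830 CPM in Dapl1+ Foxp3-negative cells, against 991, 581, 483 and 596 CPM in Foxp3-positive cells. Its log2 fold change was 1.09, with the spleens of both ages nearest to the Foxp3-positive level and the groups overlapping across libraries.

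Receptors for survival and recirculation followed, with more spread. Il7r, the IL-7 receptor alpha chain, stood at 665, 489, 579 and 156 CPM in Dapl1+ Foxp3-negative cells, against 306, 229, 131 and 108 CPM in Foxp3-positive cells, a log2 fold change of 1.45. It was higher in each library, with neonatal spleen inside the Foxp3-positive range. S1pr1, the receptor for leaving lymphoid organs, stood at 151, 101, 339 and 356 CPM in Dapl1+ Foxp3-negative cells, against 192, 144, 120 and 188 CPM in Foxp3-positive cells, so it was higher in the neonatal libraries and lower in the 7-week ones. The pooled call (log2 fold change 0.94) comes from the neonatal pairs. Cd27, a co-stimulatory receptor, was the naive gene that did not pass, with a log2 fold change of -0.47 (edgeR adjusted p = 0.13).

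Outside the naive list, Cd40lg and Ly6c1 were among the highest. Cd40lg encodes CD40 ligand, by which helper T cells activate B cells, and stood at 90.7, 50.6, 120 and 97.6 CPM in Dapl1+ Foxp3-negative cells, against 20.98, 31.6, 13.1 and 20.6 CPM in Foxp3-positive cells. Its log2 fold change was 2.51 ± 0.32, and no Dapl1+ Foxp3-negative value fell into the Foxp3-positive range. These values rest on 3, 3, 24 and 20 UMIs, so the 7-week ones are what 3 UMIs are worth and are not read as a difference. Ly6c1, a surface protein of many naive and memory T cells of C57BL/6 mice, stood at 272, 253, 429 and 273 CPM in Dapl1+ Foxp3-negative cells, against 137, 118, 24.2 and 58.5 CPM in Foxp3-positive cells. For Ly6c1 the log2 fold change was 2.57 ± 0.21, again without overlap. Apol7e (3.26 ± 0.52, from 20 UMIs), Als2cl (3.003 ± 0.69, from 9 UMIs), Tnfsf8 (2.36 ± 0.48, from 21 UMIs) and Sema4a (2.48 ± 0.63, from 11 UMIs) were called higher from few molecules. Tnfsf8, the ligand of CD30, lost its call without neonatal liver (log2 fold change 1.73, edgeR adjusted p = 0.071). Sema4a, a semaphorin, lost its call without 7-week spleen (1.98, edgeR adjusted p = 0.14), as did Als2cl (2.24, edgeR adjusted p = 0.215).

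The Treg genes outside the rule were low. Of 20 tested, 0 were higher and 15 lower, with a median log2 fold change of -2.44, or -2.22 with the gene at 0 UMIs set at its bound. Ctla4, an inhibitory receptor of Treg cells, stood at 212, 118, 14.97 and 39.1 CPM in Dapl1+ Foxp3-negative cells, against 413, 331, 539 and 311 CPM in Foxp3-positive cells. The groups did not overlap and the log2 fold change was -2.69 ± 0.27, with the 7-week libraries nearer to the Foxp3-positive level. Tnfrsf4, which encodes OX40, stood at 0, 84.3, 69.9 and 117 CPM in Dapl1+ Foxp3-negative cells, against 396, 571, 873 and 769 CPM in Foxp3-positive cells, a log2 fold change of -3.01 ± 0.23. Capg, an actin-capping protein, stood at 60.5, 202, 64.9 and 68.4 CPM in Dapl1+ Foxp3-negative cells, against 618, 469, 799 and 544 CPM in Foxp3-positive cells, a log2 fold change of -2.69. Neither range overlapped.

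Other receptors of the Treg list differed in size of change. Tnfrsf18, which encodes GITR, fell by 1.99 on the log2 scale, Icos by 2.60, Tnfrsf9 by 3.61 and the inhibitory receptor Tigit by 4.85, the last with 5 UMIs in all cells. Izumo1r, which encodes folate receptor 4, stood at 333, 337, 155 and 195 CPM in Dapl1+ Foxp3-negative cells, against 526, 1081, 490 and 890 CPM in Foxp3-positive cells, a log2 fold change of -1.57. Il2rb, the beta chain of the IL-2 receptor, stood at 423, 84.3, 24.95 and 83.0 CPM in Dapl1+ Foxp3-negative cells, against 398, 471, 589 and 370 CPM in Foxp3-positive cells. It was lower in 3 of 4 libraries, and 7-week liver lay at the Foxp3-positive level, with a log2 fold change of -2.16. Nrp1 fell by 2.05. Ikzf4, Gpr83, Itgb8, Entpd1 and Itgae did not pass, with edgeR adjusted p between 0.064 and 0.41.

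Summed over the list, the Treg genes held 1451, 1265, 594 and 786 CPM in Dapl1+ Foxp3-negative cells, 2698, 2797, 3800 and 3184 CPM in Dapl1+ Foxp3-positive cells, and 4082, 4734, 5403 and 4541 CPM in Foxp3-positive cells. Dapl1+ Foxp3-negative cells were the lowest class and Foxp3-positive cells the highest in each library. The naive genes ran the other way, with 6925, 5618, 9237 and 5835 CPM in Dapl1+ Foxp3-negative cells, 5071, 3723, 4893 and 3984 CPM in Dapl1+ Foxp3-positive cells, and 3494, 2858, 2138 and 2870 CPM in Foxp3-positive cells. Cells with 0 UMIs of Dapl1, Foxp3, Ikzf2 and Il2ra, which numbered 404, 638, 452 and 447, held 4233, 3535, 4518 and 4219 CPM of the naive list and 2443, 3082, 3044 and 2786 CPM of the Treg list. They lay between the Dapl1+ Foxp3-negative and Foxp3-positive cells on both lists. All of the naive sums include the label markers Tcf7, Ccr7 and Igfbp4.

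**Figure D2:**
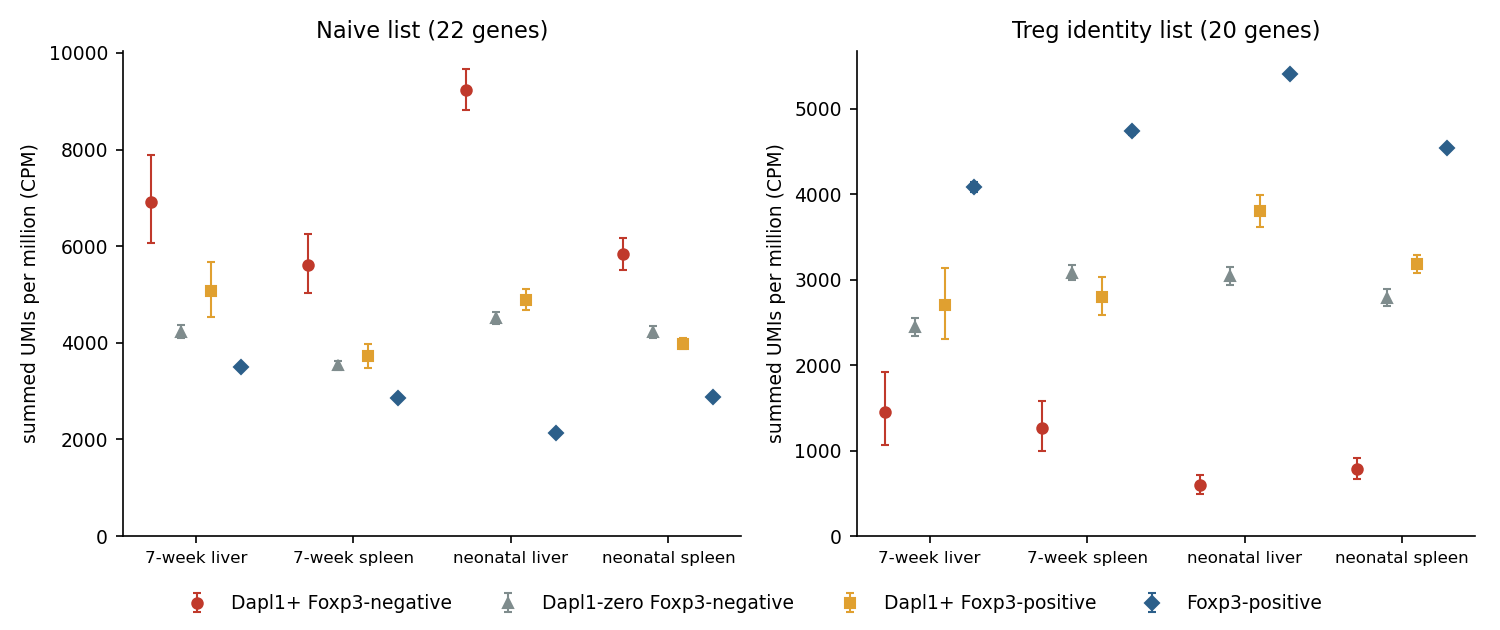
Summed UMIs per 1000000 (CPM, linear axes from 0) of the naive list (22 genes) and the Treg identity list (20 genes) in 4 classes of cells by library; bars are exact Poisson 95% intervals, counting error only. Dapl1+ Foxp3-negative cells are highest on the naive list, between 5618 and 9237 CPM, and lowest on the Treg list, between 594 and 1451 CPM. The naive list includes the label markers Tcf7, Ccr7 and Igfbp4.

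Treg-list UMIs were counted in each cell. Thinned to 1000 UMIs, 3 of 12 (25%), 9 of 20 (45.0%), 32 of 45 (71.1%) and 30 of 49 (61.2%) Dapl1+ Foxp3-negative cells had none, against 5.85%, 5.19%, 2.63% and 5.26% of Foxp3-positive cells. At full depth 2 (15.4%), 1 (5.0%), 17 (37.0%) and 11 (21.6%) Dapl1+ Foxp3-negative cells had none, so that most cells of each library held at least 1 Treg-list UMI, against 0.763%, 0.420%, 0.145% and 0.350% of Foxp3-positive cells with none. Thinned naive-list counts had medians of 5.5, 4, 10 and 6 UMIs in Dapl1+ Foxp3-negative cells, against 3, 3, 2 and 3 in Foxp3-positive cells. The middle 50% of cells ran from 8 to 13 UMIs in Dapl1+ Foxp3-negative cells of neonatal liver, against 1 to 4 in Foxp3-positive cells of that library. In 7-week spleen they ran from 3 to 6.25 UMIs in Dapl1+ Foxp3-negative cells and from 1 to 4 in Foxp3-positive cells, so that they overlapped.

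**Figure D3:**
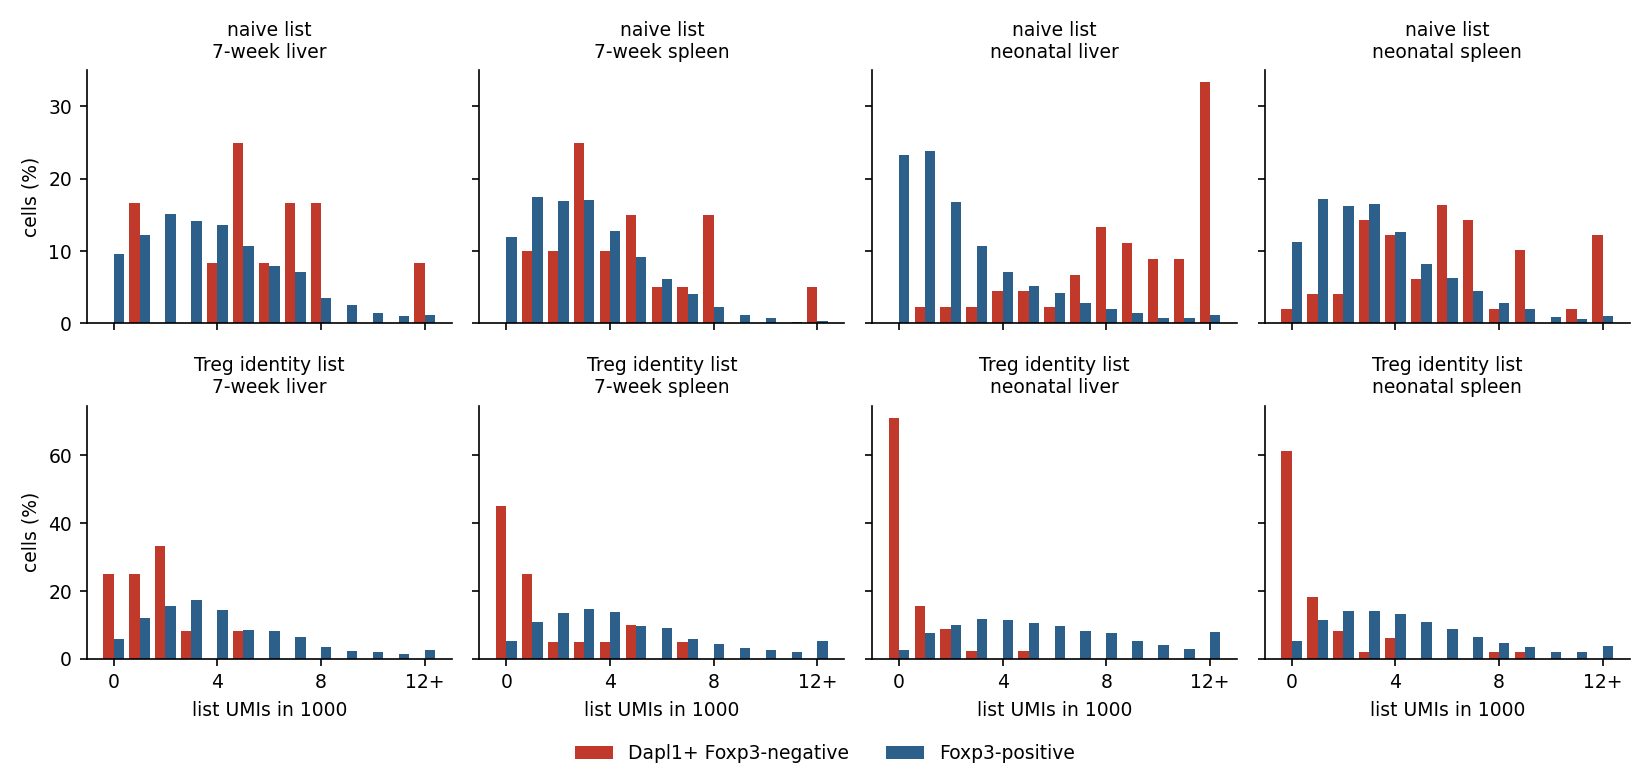
Percent of cells (vertical axis) by the number of list UMIs per cell after thinning each cell to 1000 UMIs (horizontal axis, last bar 12 or more), for the naive list above and the Treg identity list below, in each library; bars stand for Dapl1+ Foxp3-negative and Foxp3-positive cells. In neonatal liver 71.1% of the thinned Dapl1+ Foxp3-negative cells had no Treg-list UMI, against 2.63% of Foxp3-positive cells.

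The values just inside and just outside the rule are given with no test. Cells with 1 Dapl1 UMI held 7316, 5580, 8848 and 5904 CPM of the naive list and cells with 2 or more held 6187, 5645, 9378 and 5797 CPM, so the single-UMI cells were alike in this sum. Their Treg-list sums were 1760, 803, 769 and 1136 CPM with 1 Dapl1 UMI and 871, 1600, 530 and 599 CPM with 2 or more. Just outside, T cells with a Dapl1 UMI and 1 UMI in all of Foxp3, Ikzf2 and Il2ra held 5584, 4495, 7439 and 4240 CPM of the naive list and 1687, 1602, 1278 and 2051 CPM of the Treg list. Their naive sum was lower, and their Treg sum higher, than in all 130 Dapl1+ Foxp3-negative cells of the same library.

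Effector and memory genes were low. Of 23 tested, 0 were higher and 21 lower, with a median log2 fold change of -3.76, or -3.41 with genes at 0 UMIs set at their bound. The 21 include 3 genes with 0 UMIs in the 130 cells, which could only be called lower. S100a6, a calcium-binding protein of antigen-experienced T cells, stood at 30.2, 33.7, 44.9 and 9.76 CPM in Dapl1+ Foxp3-negative cells, against 1768, 664, 3579 and 1578 CPM in Foxp3-positive cells. The log2 fold change was -6.16, and the groups lay far apart. Its relative S100a4 had 1 UMI in all 130 cells. Lgals1, which encodes galectin-1, stood at 272, 202, 269 and 376 CPM in Dapl1+ Foxp3-negative cells, against 1291, 625, 2034 and 1326 CPM in Foxp3-positive cells, a log2 fold change of -2.08 without overlap.

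Of the effector and memory list, 3 genes had 0 UMIs in the 130 cells. Gzmb, which encodes granzyme B, had none, against 79.8, 23.7, 810 and 179 CPM in Foxp3-positive cells. Set at a floor of 3 counts over the 4 libraries, or 6.03 CPM, this is at least 67.7-fold lower. Lgals3 (at least 24.4-fold lower) and Prdm1, which encodes Blimp-1 (at least 2.88-fold lower), were the others. Prdm1 lost its call without neonatal liver (edgeR adjusted p = 0.354) or neonatal spleen (0.0759). Outside the list, the inhibitory receptor Lag3 (at least 12.9-fold lower), Plin2 (9.60), Ltb4r1 (8.18), Stx11 (7.15) and Mt1 (6.58) were at 0 UMIs, and without neonatal liver Ltb4r1 (edgeR adjusted p = 0.0954) and Mt1 (0.241) lost their calls. Of the list genes with UMIs, Klrg1, a receptor of terminally differentiated cells, fell by 6.22 on the log2 scale, and Cxcr3, a chemokine receptor of inflamed tissue, by 4.74. The integrin chain Itgb1 fell by 3.11 and the hyaluronan receptor Cd44 by 1.44. Id2 and Tbx21 did not pass, with log2 fold changes of -0.23 and -2.17 (edgeR adjusted p = 0.81 and 0.14). Without neonatal liver the effector calls numbered 17 of 23.

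**Figure D4:**
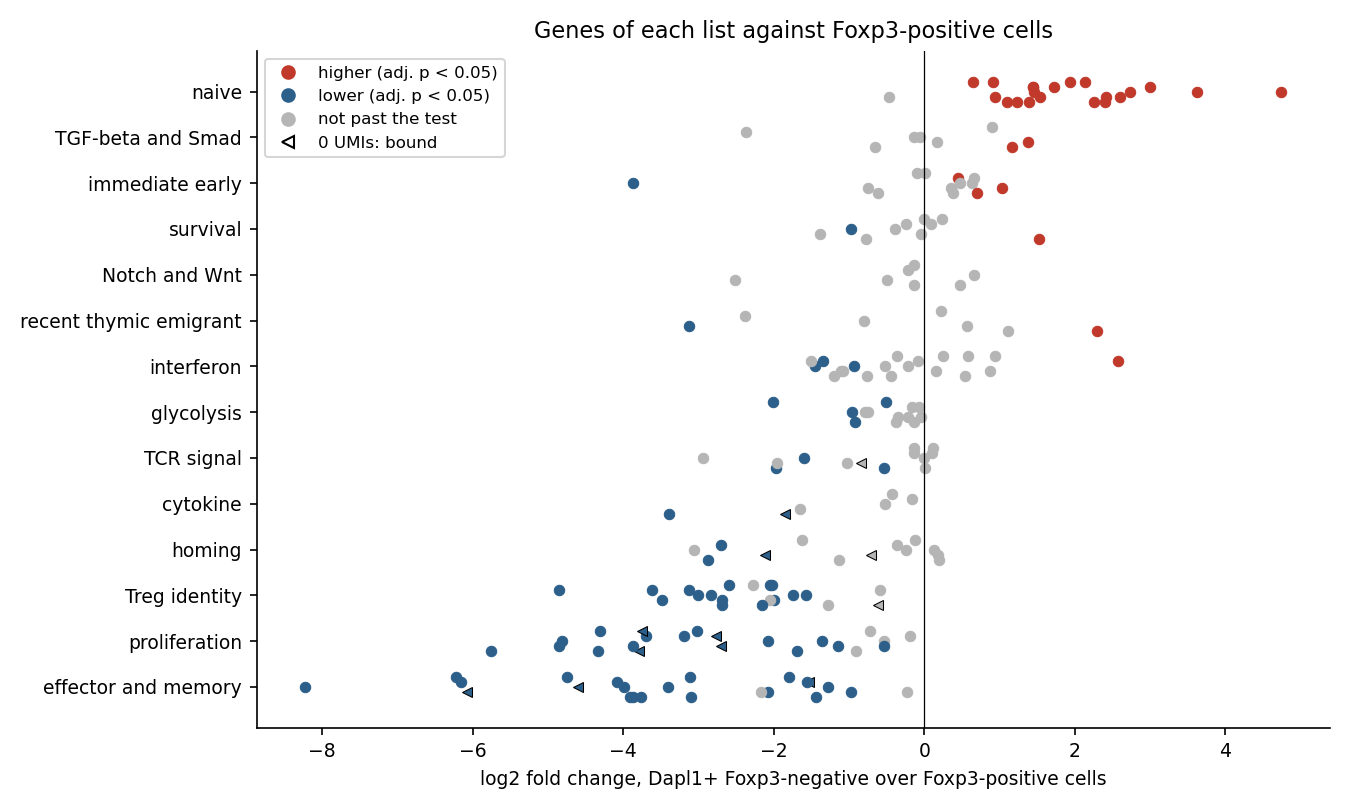
Log2 fold change of each tested gene of 14 lists, Dapl1+ Foxp3-negative over Foxp3-positive cells (horizontal axis); each point is a gene, red where called higher, blue where called lower and grey where not past edgeR's adjusted p of 0.05, and triangles are genes with 0 UMIs set at their bound. Of the naive genes, which include the label markers Tcf7, Ccr7 and Igfbp4, 21 of 22 are called higher. Of the effector and memory genes 21 of 23 are called lower, 3 of them with 0 UMIs, which left no other direction.

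Cell-cycle genes were low too. Of 22 tested, 18 were lower and 0 higher, and 4 of the 22 had 0 UMIs in the 130 cells, which left them no other direction. Mki67, Ccnb2, Cdk1 and Nusap1 are among the genes at 0. Mki67, a marker of cycling cells, was at 43.2, 22.4, 131 and 61.2 CPM in Foxp3-positive cells, which makes it at least 13.8-fold lower in Dapl1+ Foxp3-negative cells. Without neonatal liver Cdk1 and Nusap1 were not called (edgeR adjusted p = 0.101 and 0.113). The histone gene H2afz fell by 1.70 on the log2 scale, while Pcna and Mcm2, used in DNA synthesis, did not pass (-0.54 and -0.19). By cell, 14 of the 130 had 1 or more cycling UMIs and 0 had 2 or more. By library, 0, 1, 7 and 6 Dapl1+ Foxp3-negative cells had such a UMI (0%, 5.0%, 15.2% and 11.8%), against 19.7%, 11.9%, 37.3% and 24.2% of the deeper Foxp3-positive cells. Without neonatal liver, the calls numbered 10 of 22.

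The lists that follow, apart from the ribosomal proteins, are short, so that 1 called gene is already a share above those of all genes (3.52% higher, 4.78% lower), and their counts are given as descriptions. Of 13 genes induced by antigen receptor signals, 3 were lower and 0 higher. Nr4a1, which encodes Nur77 and follows receptor signalling, stood at 30.2, 33.7, 19.96 and 24.4 CPM in Dapl1+ Foxp3-negative cells, against 61.3, 116, 90.1 and 125 CPM in Foxp3-positive cells. Its log2 fold change was -1.97 ± 0.38, from 1, 2, 4 and 5 UMIs in Dapl1+ Foxp3-negative cells. In 7-week liver 3 UMIs are worth 90.7 CPM, above the Foxp3-positive level, so that library is not read as a difference. Egr1 (-1.59, lower in 3 of 4 libraries) lost its call without neonatal spleen, at an edgeR adjusted p of 0.0984. Nfkbia (-0.53), an inhibitor of NF-kappaB, lost its call without neonatal spleen (edgeR adjusted p = 0.24), 7-week spleen (0.11) or 7-week liver (0.057). Of 7 recent thymic emigrant genes tested, Tmem108 was higher (2.29, 13 UMIs in 11 cells) and Cd38 lower (-3.13, 1 UMI). Tmem108 was above the Foxp3-positive level in both neonatal libraries only, and lost its call without neonatal liver (0.28). Cd38, an ectoenzyme, lost its call without any 1 of the 4 libraries, with edgeR adjusted p from 0.0734 to 0.533. Sox4 (1.12, edgeR adjusted p = 0.39) did not pass.

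Among homing genes 3 of 13 were lower (4.78% of all genes were) and 0 higher, among them Ccr4 (-2.87) and Ccr8 (-2.71), chemokine receptors of skin and tissue Treg cells. Both kept their call without any 1 of the 4 libraries. Of the 10 survival genes, Bcl2 was called higher and Pim1 lower, too few to set beside the shares of all genes. Bcl2, an inhibitor of apoptosis, stood at 151, 67.5, 329 and 205 CPM in Dapl1+ Foxp3-negative cells, against 89.8, 155, 33.5 and 129 CPM in Foxp3-positive cells. It was higher in 3 of 4 libraries, and its log2 fold change of 1.53 ± 0.22 became 0.45 without neonatal liver (edgeR adjusted p = 0.58). Pim1, a kinase induced by cytokines, fell by 0.97. Of 6 cytokine genes 2 were lower and 0 higher, Ebi3 (-3.39, 2 UMIs) and Il10 (0 UMIs, at least 3.62-fold lower), and both lost their call without neonatal liver (edgeR adjusted p = 0.09 and 0.55).

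Of 20 interferon-induced genes 1 was higher (Ly6c1) and 3 lower, beside 3.52% higher and 4.78% lower among all genes. Ly6a, which encodes Sca-1, stood at 333, 354, 160 and 58.6 CPM in Dapl1+ Foxp3-negative cells, against 917, 534, 759 and 211 CPM in Foxp3-positive cells. Its log2 fold change was -1.46, and it was lower in each library although the ranges overlap across libraries. Isg20 (-1.34) lost its call without neonatal liver, neonatal spleen or 7-week spleen (edgeR adjusted p = 0.0858, 0.168 and 0.0626). Gbp7 (-0.94) lost its call without neonatal liver, neonatal spleen or 7-week liver (edgeR adjusted p = 0.202, 0.288 and 0.0786). Of 13 immediate early genes, which respond to handling and stimulation within a short time, 3 were higher and 1 lower. Rgs1, a regulator of G protein signalling, stood at 0, 33.7, 4.99 and 4.88 CPM in Dapl1+ Foxp3-negative cells, against 241, 194, 132 and 93.3 CPM in Foxp3-positive cells, a log2 fold change of -3.87. Junb (0.45) lost its call without neonatal liver, neonatal spleen or 7-week liver (edgeR adjusted p = 0.355, 0.398 and 0.164), and Btg2 (0.71) without neonatal liver or 7-week liver (0.437 and 0.07). Scaled over all genes, neither passed (0.49 and 0.115). Ppp1r15a (1.03) was higher in 2 of 4 libraries and lost its call without neonatal liver (edgeR adjusted p = 0.69).

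Of 13 glycolysis genes 4 were lower and 0 higher. Tpi1 stood at 30.2, 50.6, 49.9 and 39.1 CPM in Dapl1+ Foxp3-negative cells (1, 3, 10 and 8 UMIs). In Foxp3-positive cells it stood at 137, 86.2, 297 and 167 CPM, a log2 fold change of -2.02. It was lower in each library, but the 7-week values rest on 3 UMIs or fewer. Gapdh fell by 0.92, Pgam1 by 0.95 and Pkm by 0.51. Pgam1 lost its call without neonatal liver or neonatal spleen (edgeR adjusted p = 0.378 and 0.108), and Pkm without neonatal liver, neonatal spleen or 7-week liver (0.382, 0.116 and 0.183). Of 8 genes of TGF-beta signalling 2 were higher. Tgfbr2, a receptor chain, was higher in 3 of 4 libraries (1.38), and Smad7, an inhibitor of the pathway, in 4 of 4 (1.17), though without neonatal liver Smad7 was not called (edgeR adjusted p = 0.15). Of 7 Notch and Wnt genes 0 passed. Ribosomal protein genes, a list added after the data were seen, were called higher for 59 of 80 and lower for 1, Rps27l, with a median log2 fold change of 0.48. Scaled over all genes the median was 0.33 and 13 of 80 were called higher.

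The Dapl1+ Foxp3-positive cells put both classes on the same Dapl1 criterion, and numbered 16, 51, 60 and 173. They are part of the Foxp3-positive cells above, so the comparisons share cells. Against them the Dapl1+ Foxp3-negative cells again had high naive and low Treg RNA. Of 2670 genes tested, 23 were higher (0.861%) and 41 lower (1.54%). Of 20 naive genes tested 9 were higher and 0 lower, with a median log2 fold change of 0.76 against -0.02 over all genes. The label markers Tcf7, Ccr7 and Igfbp4 are among these 9. Of 11 Treg genes tested 9 were lower and 0 higher, with a median of -1.85. These counts rest on neonatal spleen, without which 0 genes passed in either direction, and 146 had an unadjusted p under 0.05, against 327 with it. Without neonatal liver 5 were higher and 8 lower.

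Tcf7 stood at 242, 304, 539 and 405 CPM in Dapl1+ Foxp3-negative cells, against 146, 112, 219 and 146 CPM in Dapl1+ Foxp3-positive cells. Each Dapl1+ Foxp3-negative value was above all those of Dapl1+ Foxp3-positive cells, and the log2 fold change was 1.38 ± 0.18 (edgeR adjusted p = 2.2e-04). Without neonatal spleen it was 1.29 (edgeR adjusted p = 0.093). Ccr7 stood at 786, 590, 1352 and 703 CPM in Dapl1+ Foxp3-negative cells, against 520, 252, 624 and 294 CPM in Dapl1+ Foxp3-positive cells. It was higher in each library, by a log2 fold change of 1.15 ± 0.15, or 1.06 without neonatal spleen (edgeR adjusted p = 0.093). Igfbp4 stood at 575, 439, 1387 and 933 CPM in Dapl1+ Foxp3-negative cells, against 536, 373, 417 and 311 CPM in Dapl1+ Foxp3-positive cells. The gap was wide in the neonatal libraries and within counting error in the 7-week ones. In the UMI split, 7-week liver ran the other way, with 82.7 CPM in Dapl1+ Foxp3-negative cells and 1039 CPM in Dapl1+ Foxp3-positive cells. Its log2 fold change of 1.22 ± 0.23 (edgeR adjusted p = 0.0046) was 0.92 without neonatal liver (0.28) and 0.93 without neonatal spleen (0.42).

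Tdrp and Rflnb had the largest positive log2 fold changes in this comparison. Tdrp stood at 121, 50.6, 110 and 68.4 CPM in Dapl1+ Foxp3-negative cells, against 32.5, 4.5, 21.4 and 5.73 CPM in Dapl1+ Foxp3-positive cells, a log2 fold change of 2.84 ± 0.41. Rflnb stood at 242, 202, 165 and 210 CPM in Dapl1+ Foxp3-negative cells, against 97.5, 58.5, 52.4 and 28.7 CPM in Dapl1+ Foxp3-positive cells, a log2 fold change of 2.18 ± 0.27 (1.67 without neonatal spleen, edgeR adjusted p = 0.086). Neither pair of groups overlapped, but the 7-week Tdrp values rest on 4 and 3 UMIs in Dapl1+ Foxp3-negative cells. Cd40lg stood at 90.7, 50.6, 120 and 97.6 CPM in Dapl1+ Foxp3-negative cells, with 3 UMIs in each 7-week library. In Dapl1+ Foxp3-positive cells it stood at 0, 45.0, 33.3 and 21.02 CPM, a log2 fold change of 1.88 ± 0.37. Il7r was higher in each library, by 1.01, and Actn1 by 1.25. Cmah, an enzyme of sialic acid synthesis (1.57), Emb, which encodes the membrane protein embigin (1.38), Selenop, which encodes a selenium carrier protein (1.38), and Tmem71 (1.17) were higher as well. None of these held its call without neonatal spleen.

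On the lower side, Rgs1 had 4 UMIs in the Dapl1+ Foxp3-negative cells, against 358, 211, 126 and 134 CPM in Dapl1+ Foxp3-positive cells, a log2 fold change of -4.15 ± 0.43. Tnfrsf4 stood at 0, 84.3, 69.9 and 117 CPM in Dapl1+ Foxp3-negative cells, against 146, 202, 681 and 529 CPM in Dapl1+ Foxp3-positive cells, a log2 fold change of -2.49 without overlap. Ctla4 stood at 212, 118, 14.97 and 39.1 CPM in Dapl1+ Foxp3-negative cells, against 228, 144, 336 and 164 CPM in Dapl1+ Foxp3-positive cells. The 7-week values were alike and the neonatal ones far apart, and the log2 fold change of -2.03 was -1.10 without neonatal liver (edgeR adjusted p = 0.36). Socs2 (-2.93) and Cish (-2.60), inhibitors induced by STAT5 signals, were lower, as were Coro2a (-2.88), Capg (-2.24), Itgb1 (-2.04), Samsn1 (-1.94), Ephx1 (-1.61) and Izumo1r (-1.55). Rln3, which encodes the hormone relaxin-3, had 0, 0, 44.9 and 186 CPM in Dapl1+ Foxp3-negative cells, against 114, 54.0, 421 and 559 CPM in Dapl1+ Foxp3-positive cells, a log2 fold change of -2.17.

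Of the effector genes 8 could be tested in this comparison, and 5 were lower: S100a10 (-1.004) and S100a11 (-2.39), each in 3 of 4 libraries, and Lgals1 (-1.52), Vim (-0.98) and Itgb1 in 4 of 4. Without neonatal liver 0 of 6 effector genes were called. H2afz (-1.23) was the 1 of 5 cell-cycle genes called lower, Pim1 (-0.90) the 1 of 6 survival genes, and Tpi1 (-1.26) and Gapdh (-0.57) the 2 of 10 glycolysis genes. Without neonatal liver H2afz was at -0.80 (edgeR adjusted p = 0.21) and Gapdh at -0.61 (0.193), and without 7-week liver Gapdh was at -0.54 (0.0695). In the receptor-signal (6 tested), homing (6), interferon (11), recent thymic (2), cytokine (2), TGF-beta (2) and Notch and Wnt (2) lists 0 genes passed. Ribosomal protein genes had a median log2 fold change of 0.12, and Rpl8 was the 1 of 80 called.

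The differences from Foxp3-positive cells depended on age and tissue for a few genes. Terms for age and tissue were added to the edgeR model after the data were seen, with 1 library per combination and 2 residual degrees of freedom. The class difference varied with age for 14 of 9052 genes (0.155%) and with tissue for 21 (0.232%), with 285 and 391 genes at an unadjusted p under 0.05. Igfbp4 exceeded the Foxp3-positive level by less at 7 weeks than in neonates, with a log2 difference of -1.498 between the ages (edgeR adjusted p = 0.015). Ly6c1 did likewise (-2.20, edgeR adjusted p = 1.5e-04), and so did Bcl2 (-2.43, edgeR adjusted p = 0.0035), which in 7-week spleen was below the Foxp3-positive level. Ctla4 was depleted less at 7 weeks (2.64, edgeR adjusted p = 0.022). Its UMIs in Dapl1+ Foxp3-negative cells were 7, 7, 3 and 8, so these 4 values rest on 25 molecules.

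**Figure D5:**
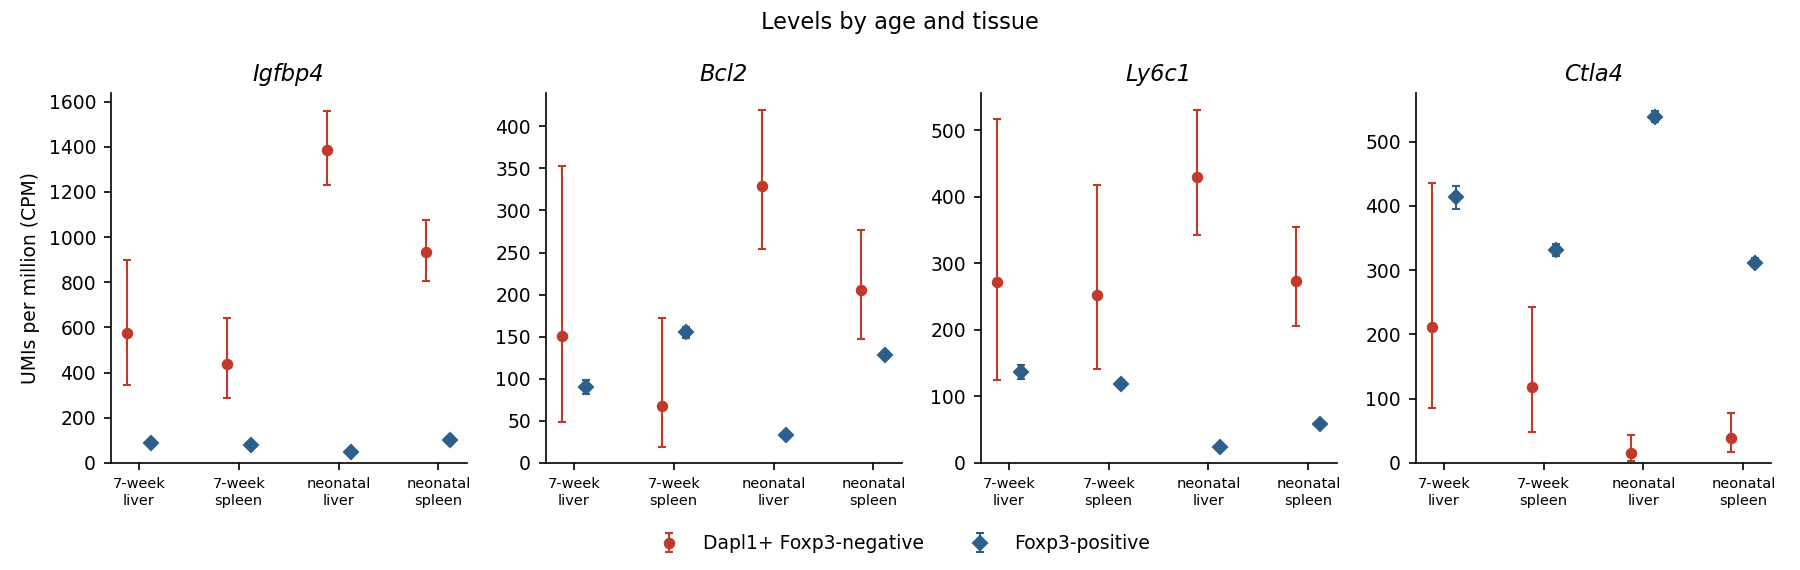
Levels of Igfbp4, Bcl2, Ly6c1 and Ctla4 in UMIs per 1000000 (CPM, linear axes from 0) in Dapl1+ Foxp3-negative and Foxp3-positive cells by library; bars are exact Poisson 95% intervals, counting error only. Bcl2 is higher in the Dapl1+ Foxp3-negative cells of 7-week liver and both neonatal libraries and lower in 7-week spleen, at 67.5 against 155 CPM.

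Between ages, the cells were compared as 1 library against 1, with no test, and a gene was counted at a CPM ratio of 2 or more if the higher library held 25 CPM or more of it and 20 UMIs or more. In liver, 19 of 850 genes (2.24%) were counted higher at 7 weeks and 201 (23.6%) lower. In spleen, 25 of 1073 (2.33%) were counted higher at 7 weeks and 201 (18.7%) lower. The 20-UMI minimum is met more easily in the deeper neonatal sums, so the surplus of lower genes is not read as a direction. Jun, an immediate early transcription factor, stood at 695 CPM in 7-week liver against 89.8 CPM in neonatal liver, a ratio of 7.74 (exact 95% interval 3.998 to 15.2, counting error only). Foxp3-positive cells showed 365 against 56.7 CPM of Jun in the same libraries. Zfp36l2, an RNA-binding protein, stood at 726 against 140 CPM, a ratio of 5.19 (2.88 to 9.29), with 534 against 99.4 CPM in Foxp3-positive cells. For both genes the Foxp3-positive cells of these libraries were apart in the same direction. The chaperone Hsp90aa1 stood at 665 against 165 CPM (ratio 4.04), and Hnrnpl, a splicing factor, had 0 UMIs at 7 weeks against 45 in neonates (at least 2.48-fold lower).

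In spleen, Cd69, an early activation marker that retains cells in tissue, stood at 354 CPM at 7 weeks against 43.9 CPM in neonates, a ratio of 8.06 (3.54 to 19.99). In Foxp3-positive cells Cd69 was at 234 against 120 CPM. H2-Q7, a non-classical MHC class I gene, stood at 675 against 103 CPM, a ratio of 6.58 (3.79 to 11.7), with 580 against 282 CPM in Foxp3-positive cells. Ly6a stood at 354 against 58.6 CPM (ratio 6.05), with 534 against 211 CPM in Foxp3-positive cells. Ly6e stood at 2497 against 659 CPM (ratio 3.79) and Il7r at 489 against 156 CPM (ratio 3.13). Cd69, H2-Q7 and Ly6a were thus higher at 7 weeks in both classes. Rln3 had 0 UMIs at 7 weeks against 38 in neonates (at least 3.67-fold lower), with 175 against 766 CPM in Foxp3-positive cells. Cirbp, a cold-inducible RNA-binding protein, stood at 33.7 against 332 CPM.

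Between tissues, neonatal liver and neonatal spleen gave the best counted pair, with 49 of 1539 genes (3.18%) counted higher in liver and 71 (4.61%) lower. Tob1, an antiproliferative gene of resting T cells, stood at 120 CPM in liver against 14.6 CPM in spleen, a ratio of 8.18 (2.48 to 42.4) from 24 and 3 UMIs. Foxp3-positive cells had 31.5 against 42.8 CPM of Tob1, without that excess. Mcl1, a survival gene, stood at 150 against 29.3 CPM (ratio 5.11), with 119 against 53.8 CPM in Foxp3-positive cells. Ddit4, a stress gene that restrains mTORC1, stood at 9.98 CPM in liver (2 UMIs) against 308 CPM in spleen (63 UMIs), and in Foxp3-positive cells at 145 against 299 CPM. Id3, an inhibitor of E proteins, stood at 64.9 against 229 CPM, with 83.0 against 352 CPM in Foxp3-positive cells.

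At 7 weeks, 6 of 321 genes (1.87%) were counted higher in liver than in spleen and 23 (7.17%) lower. The spleen sum was the deeper one, so the surplus of lower genes is again not read as a direction, and thinned cells gave 2 higher and 3 lower. Ddit4 was low in liver at this age too, at 90.7 CPM (3 UMIs) against 489 CPM in spleen (29 UMIs), with 179 against 391 CPM in Foxp3-positive cells. Junb stood at 1784 CPM in liver against 557 CPM in spleen, a ratio of 3.20 (2.06 to 5.07), with 1322 against 720 CPM in Foxp3-positive cells. Jun stood at 695 against 304 CPM. Across the 4 libraries Ddit4 was thus lower in liver than in spleen at both ages, in Dapl1+ Foxp3-negative and in Foxp3-positive cells.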

How the data were processed

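RNA was measured in 4 single-cell libraries made with a 10x Genomics 5' kit, per the labels' protocols. What the authors deposited are unnormalized UMI counts for each gene in each barcode. The file headers name Cell Ranger 4.0.0, and the submitters' processing notes name the build mm10 and Seurat 4.0.2. Which annotation they counted on is not given here. Of 32285 feature IDs 32235 matched GENCODE vM21, used for positions.

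Barcodes were filtered and chosen by the rule given above, and the counts of each class were summed per library, since cells are not replicates. The class comparisons used edgeR 4.0.16 (R 4.3.3) with quasi-likelihood tests, the library as a block (the classes of a library are paired by design), edgeR's filter on low counts and Benjamini-Hochberg adjustment at 0.05. TMM factors were taken over genes with a mean of at least 100 CPM. On simulated data, factors over all genes tested had biased the sparse sums, so this choice was made after that test and differs from the planned factors, which are among the alternatives. Dapl1, Foxp3, Ikzf2, Il2ra, Cd3d, Cd3e and Cd3g were not tested. With 130 cells and 497554 UMIs in the Dapl1+ Foxp3-negative class, weakly expressed genes cannot be compared. Comparisons between libraries have no test. The values of some list genes are not reported here, although the list counts include them.

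The genes named are, per class comparison, the 12 highest and 12 lowest log2 fold changes among genes called in 1 direction in all 4 libraries, up to 4 genes of each of 14 lists, the label markers, and per pair of libraries the 5 highest and 5 lowest ratios, without antigen receptor segments, haemoglobin genes, sex-linked genes, genes with no symbol of their own, and ribosomal or mitochondrial genes. Other genes of the naive, Treg, effector and cell-cycle lists and of the age and tissue terms were named after their values were seen. The cells, lists and tests were chosen with earlier results of these data known. Nothing says that the libraries came from separate animals, so p-values speak for these libraries only. Each ± value is an SE taken from the log2 fold change and edgeR's F statistic. Because edgeR shares dispersion across genes, neither the SE nor the p-value is a gene's own spread over the 4 pairs.

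Doublets were not removed: Scrublet (scanpy 1.11.5, Python 3.11.15) marked 2, 0, 2 and 0 barcodes by its automatic threshold, which had not worked, and leaving out the top scores at the expected rate (51, 297, 365 and 382 barcodes, of which 0, 0, 0 and 1 are Dapl1+ Foxp3-negative cells) is an alternative. Intervals are exact Poisson (levels), Clopper-Pearson (shares) or conditional binomial (ratios) intervals computed with scipy 1.17.1. DESeq2 1.42.0, other scalings, filters, thinning to 1000 UMIs, the choice and measurement in separate random sets of UMIs, and leaving out each library were alternatives.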

Additional observations from a re-analysis of the deposited data

Results flagged for a closer look

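Some differences between Dapl1+ Foxp3-negative and Foxp3-positive cells changed with age or with tissue. The test is edgeR's term for class by age or class by tissue, added after the data were seen, with 4 library pairs and 2 residual degrees of freedom. Values are differences of log2 fold changes, 7-week minus neonatal or liver minus spleen. No cause was tested.

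By age, the values were -2.43 for Bcl2, -2.20 for Ly6c1 and -1.498 for Igfbp4, whose excess over Foxp3-positive cells was smaller at 7 weeks. They were 2.64 for Ctla4 and 1.74 for H2-Q7, whose level relative to Foxp3-positive cells was higher at 7 weeks, and 5.01 for Ccl5. H2-Q7 stood at 454, 675, 105 and 103 CPM in Dapl1+ Foxp3-negative cells, against 651, 580, 489 and 282 CPM in Foxp3-positive cells (edgeR adjusted p = 0.012). Ccl5 rests on 0, 9, 3 and 3 UMIs in Dapl1+ Foxp3-negative cells. Its higher relative level was seen in 7-week spleen only, at 152 CPM against 117 CPM in Foxp3-positive cells. In 7-week liver it was at 0 against 251 CPM. The tissue value of Ccl5 below rests on the same UMIs.

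By tissue, the values were positive, so that the ratio of Dapl1+ Foxp3-negative to Foxp3-positive cells was larger in liver, for Bcl2 (2.50), Ly6c1 (1.40), Igfbp4 (1.31), Klf2 (0.96), Itm2a (1.97) and Gpr83 (4.10, from 4, 0, 12 and 4 UMIs). For Klf2 the Dapl1+ Foxp3-negative cells of liver stood at 1603 CPM at 7 weeks and 1801 CPM in neonates, against 991 and 483 CPM in Foxp3-positive cells. The value was negative for Ddit4 (-2.81), Id2 (-2.49), Crip1 (-1.56), S100a10 (-1.06), S100a11 (-2.24) and Ccl5 (-4.55). Crip1 stood at 575, 1097, 1053 and 1631 CPM in Dapl1+ Foxp3-negative cells, against 2636, 1102, 3957 and 2468 CPM in Foxp3-positive cells, so that 7-week spleen was the library without a deficit. S100a10 stood at 756, 894, 444 and 464 CPM in Dapl1+ Foxp3-negative cells, against 3028, 1461, 3242 and 1835 CPM in Foxp3-positive cells, where the liver libraries were the high ones.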

How the results depend on the processing

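Against Foxp3-positive cells (319 genes higher, 433 lower), 178 were higher with TMM factors over all genes, where the median log2 fold change was -0.17 in place of -0.06 and the higher genes made up 27.6% of calls in place of 42.4%. That share was 27.1% with library totals (median -0.21) and 56.7% with DESeq2, which called 182 higher and 139 lower. Without the replicate block 62 were higher and 83 lower. Thinned cells gave 68 and 81, and separate sets of UMIs for choice and measurement 154 and 195. Leaving out each library gave 138 to 285 higher and 157 to 400 lower, lowest without neonatal liver (138 and 157) and then without neonatal spleen (165 and 240).

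Against Dapl1+ Foxp3-positive cells (23 higher, 41 lower), the counts were 38 and 124 with no low-count filter, 4 and 4 without the replicate block, 13 and 10 with DESeq2, 85 and 155 in the neonatal libraries alone, 8 and 12 with thinned cells, and 10 and 22 with separate sets of UMIs. Leaving out each library gave 0 to 57 higher and 0 to 70 lower.

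Of the named genes called, 56 against Foxp3-positive cells gave 1076 values under these and the other alternatives, of which 902 kept their call, 174 lost it and 0 changed sign. The 32 against Dapl1+ Foxp3-positive cells gave 517, of which 421 kept their call, 96 lost it and 0 changed sign.

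With at least 2 Dapl1 UMIs the shares of T cell barcodes were 0.167%, 0.184%, 0.588% and 0.490%, and thinned cells gave 0.542% in neonatal liver. With 10 UMIs and 10 CPM as the minimum, genes counted higher and lower between libraries were 58 and 579 (7-week against neonatal liver), 74 and 581 (7-week against neonatal spleen), 201 and 272 (neonatal liver against spleen), and 34 and 109 (7-week liver against spleen). Thinned cells gave 9 and 42, 7 and 35, 10 and 20, and 2 and 3 for the same pairs. Depth limits the 7-week sums most.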
